A study of Elaeis oleifera with 12 samples.

Results

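The basic helix-loop-helix (bHLH) transcription factors were followed in the abscission zone (AZ) at the base of oil palm fruit. Members were found by their locus descriptions, which had to contain bHLH, transcription factor MYC, PIF with a number or transcription factor ICE1. The search returned 143 of the 29040 loci in the files, and no matching locus had to be left out as a phytochrome. RPKM (reads at a locus per kilobase of transcript and scaled to the aligned reads of the library) was above 0 in at least 1 library for 134 of these loci, and 93 reached 1 RPKM in at least 1 library and were tested. Of the other 50 loci, 41 had reads but stayed below 1 RPKM in every library and 9 were at 0 in all 12.

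RNA was sequenced from 2 Elaeis oleifera palms of 1 progeny, a palm that does not drop its fruit (non-shedding, NSd) and a palm that sheds normally (Sd). The 4 groups were ripe NSd (replicates 4 to 6), pre-ripe (PR) NSd (replicates 1 to 3), ripe Sd (replicates 10 to 12) and PR Sd (replicates 7 to 9), with 3 libraries in each. Ripe fruit came from the lowest bunch in the whorl, and PR fruit came from the bunch just above it. Each library was 1 of 3 samplings from 1 bunch, with about 50 AZ pieces (about 3 g) pooled, so p-values cover only how samplings of the same bunch varied. The shedding phenotype cannot be told apart from the palm, and a change with stage cannot be told apart from a difference between bunches. The labels name no allele or treatment for either palm. Library totals ran between 19090375 and 34004517 aligned reads, and 1 read at a transcript of 1500 bases was worth 0.0196 to 0.0349 RPKM. Loci of a family share sequence, and reads of near-identical copies may be split between them, which was not tested.

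Plant bHLH factors bind DNA as pairs, at E-box and G-box elements, through a basic stretch followed by a pair of helices joined by a loop. The family is best known for the jasmonate factor MYC2, the light factors called PIF, the cold and stomatal factor ICE1, the regulators of iron uptake and the CIB factors that respond to blue light. In jasmonate signalling, JAZ repressors hold MYC2 inactive until the receptor COI1 triggers their breakdown, and jasmonate is known to promote floral organ abscission in Arabidopsis. Most descriptions carry the number of the closest Arabidopsis protein, and members were grouped by the subfamily of that protein. Names in capitals (BHLH062, BHLH089 and BHLH148) follow the numbering of rice and formed a group of their own. Subfamily roles given here are those in Arabidopsis or rice and were not measured in palm.

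The family covered a wide range of levels. The median over members of the mean RPKM across 12 libraries was 1.86, against 3.43 over all 29040 loci, and the 93 tested members had a median of 6.21 RPKM, against 8.40 over all 20495 loci tested. Means of at least 10 RPKM were found for 35 members and of at least 20 RPKM for 22. The highest member was bHLH162 (LOC105056299), at 137, 193 and 201 RPKM in ripe NSd, 419, 554 and 339 in PR NSd, 272, 234 and 203 in ripe Sd and 198, 182 and 290.0 in PR Sd. Second was bHLH63 (LOC105058752), named after the Arabidopsis CIB1 protein that binds the blue-light receptor cryptochrome, at 597, 335 and 335 RPKM in ripe NSd, 133, 112 and 118 in PR NSd, 198, 153 and 92.4 in ripe Sd and 298, 212 and 172 in PR Sd. These values placed the highest member in PR NSd and the second in ripe NSd, and no other member reached a mean of 100 RPKM over the 12 libraries. Next by mean level were bHLH112 (LOC105035841), bHLH18 (LOC105058167), bHLH35 (LOC105050852), MYC2 (LOC105053846), bHLH115 (LOC105055398) and bHLH129 (LOC105051406).

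**Figure D1:**
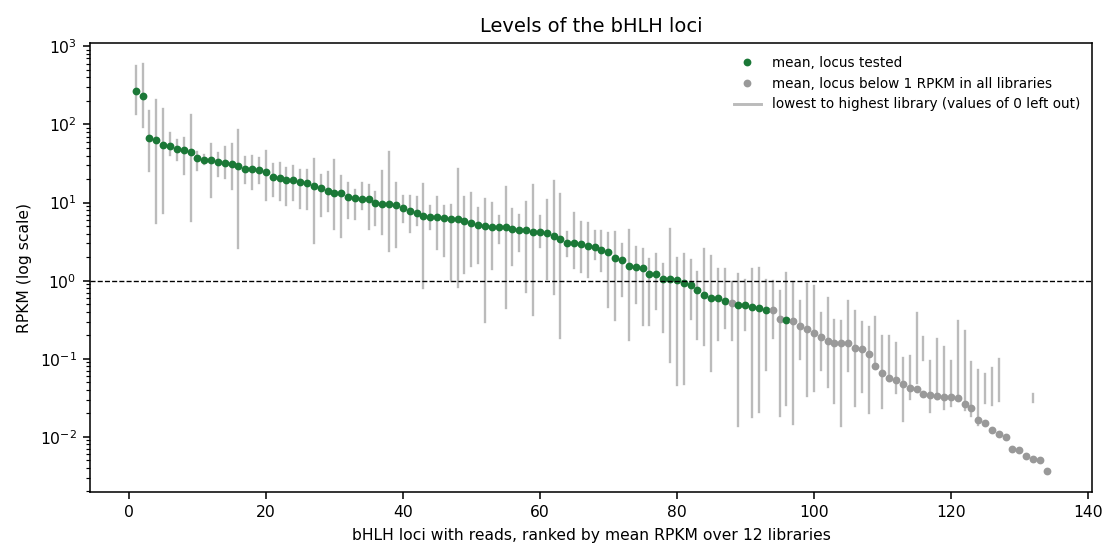
RPKM (log scale) of the 134 bHLH loci with reads, ranked by mean over 12 libraries. Points are means, green for the 93 tested loci and grey for loci below 1 RPKM in all libraries, and grey lines run between the lowest and the highest library above 0. The dashed line marks 1 RPKM, and the means fall over more than 4 orders of magnitude, with 80 loci at a mean of 1 RPKM or more.

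Changes between groups were tested with limma on log2(RPKM + 1) in 1 fit of all 12 libraries, and calls needed a log2 fold change above 1 or below -1 with p under 0.01 after Benjamini-Hochberg adjustment over all tested loci. This scale understates the change of loci near 1 RPKM. In ripe Sd against PR Sd, the step at which fruit of the shedding palm loosens, 1 bHLH locus was called higher and 1 lower (1.08% each of 93), where 0.659% of all tested loci were called higher and 0.429% lower. In ripe NSd against ripe Sd, 2 members were called higher (2.15%) and 4 lower (4.30%), against 0.815% higher and 1.63% lower over all loci. At an unadjusted p under 0.05, 26 of the 93 members were higher (12.5% of all loci were) and 13 of 93 lower (10.1% of all loci) in ripe Sd than in PR Sd. By the same limit 10 of 93 were higher (10.3% of all loci) and 32 of 93 lower (18.0% of all loci) in ripe NSd than in ripe Sd. The shares called in these comparisons rest on few members.

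More members were called in the comparisons that include PR NSd. In ripe NSd against PR NSd, 15 members were called higher (16.1%) and 14 lower (15.1%), where 7.77% of all loci were called higher and 3.07% lower. In PR NSd against PR Sd, 13 members were called higher (14.0%) and 11 lower (11.8%), against 3.36% and 9.53% of all loci. The share of bHLH loci called was thus above the background in both directions of the first comparison, and in the second it was well above it for higher loci and near it for lower loci. Both comparisons share the 3 PR NSd libraries, and their calls are not independent of each other.

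The PR NSd libraries stood apart from the other 9. Their median RPKM over all loci was 2.11 to 2.55, against 3.10 to 3.94 in the other libraries, and the median log2 change over all tested loci was 0.31 in ripe NSd against PR NSd and -0.35 in PR NSd against PR Sd. Rescaling RPKM by the median ratio brought these medians to 0.02 and -0.02, and the members called became 12 higher (12.9%) and 16 lower (17.2%) in ripe NSd against PR NSd, where 4.37% and 5.19% of all loci were then called. In PR NSd against PR Sd they became 15 higher (16.1%) and 6 lower (6.45%), against 5.74% and 4.58% of all loci. Over the 54 loci of the photosynthesis marker list (2 at 0 throughout), summed RPKM was 3589 to 4658 in ripe NSd and 580.3 to 624 in PR NSd, against 2646 to 4000.4 in ripe Sd and 4080.3 to 4461 in PR Sd. Over 65 lignin and pedicel loci (11 at 0) the sum was 709 to 841 in ripe NSd and 433 to 521 in PR NSd, against 863 to 969 in ripe Sd and 825 to 861 in PR Sd. Over 32 seed storage and LEA loci (6 at 0) the sum was 6967 to 8182 in ripe NSd and 8972 to 10540 in PR NSd, against 5807 to 7666 in ripe Sd and 7277 to 10017 in PR Sd. Loci described as ribosomal RNA summed to 4186 to 50560 RPKM in ripe NSd and 43212 to 122712 in PR NSd, with the highest sum in replicate 1, against 8501 to 23971 in ripe Sd and 16216 to 20152 in PR Sd. The part of these differences in the bHLH results was not tested, and fewer cells of a type cannot be told apart here from less RNA per cell. With no other tissue in the series the AZ label could not be checked. The 53 polygalacturonase loci (12 at 0), cell wall enzymes of organ separation and of ripening, summed to 308 to 634 RPKM in ripe NSd and 187 to 236 in PR NSd, against 322 to 535 in ripe Sd and 184 to 265 in PR Sd.

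The difference between the ripe and the PR bunch was not the same in the 2 palms at many members. The interaction term, which is the ripe minus PR difference in NSd less that in Sd, was called above 0 for 10 members (10.8%) and below 0 for 17 (18.3%), where 9.19% and 4.07% of all loci were called. After rescaling by the median ratio the counts were 8 above (8.6%) and 18 below 0 (19.4%), and the background turned to 4.97% above and 6.18% below. Across the 93 members, the stage changes of the 2 palms, which share no library, had a Pearson r of -0.53, against -0.16 across all 20495 loci, and 54 members (58.06%) changed with opposite sign, against 52.75% of all loci. Loci are not independent, and these values describe the libraries only. With the pattern chosen after its values were seen, 9 members (9.68%) had all 6 libraries of PR NSd and ripe Sd above all 6 of ripe NSd and PR Sd, a state found at 1.32% of all tested loci. The reverse order was found at 2 members (2.15%), bHLH112-like (LOC105055519) and bHLH128 (LOC105038654), and at 2.54% of all loci.

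**Figure D2:**
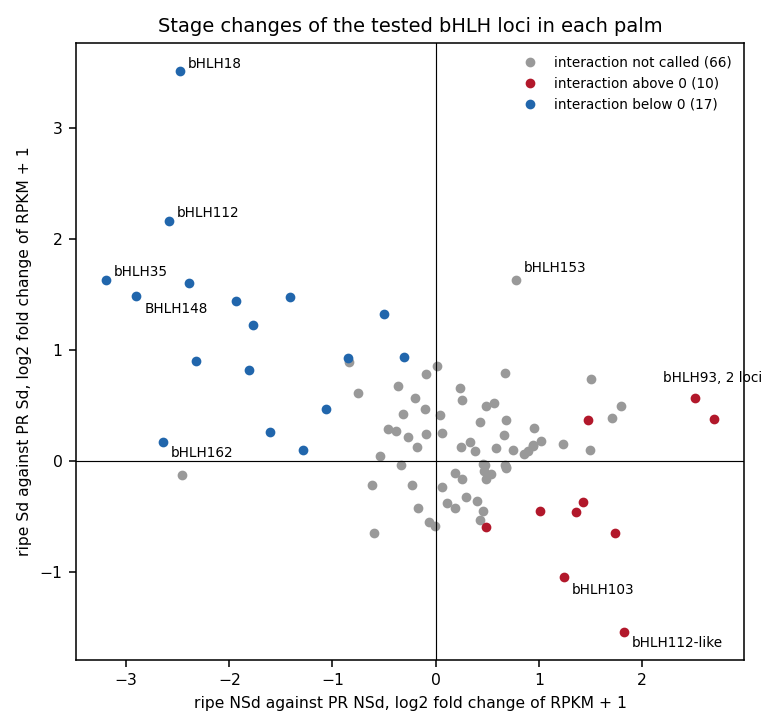
Log2 fold change of RPKM + 1 from limma for ripe NSd against PR NSd (x axis) and ripe Sd against PR Sd (y axis) at the 93 tested bHLH loci. Colours mark the 17 loci with a called interaction below 0 (blue), the 10 above 0 (red) and the 66 not called (grey), and the blue points lie in the upper left, with bHLH18 highest.

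Jasmonate-linked members are described first. The group of MYC2 and its relatives (MYC activators and the JAM repressors) held 10 loci, of which 7 were tested, and its summed RPKM was 150.0 ± 10.6 in ripe NSd, 130 ± 18.3 in PR NSd, 179 ± 20.6 in ripe Sd and 125 ± 6.43 in PR Sd (SD, n = 3 each). Its main locus was MYC2 (LOC105053846), at 77.8, 76.2 and 63.5 RPKM in ripe NSd, 40.9, 47.9 and 45.0 in PR NSd, 45.5, 46.3 and 50.9 in ripe Sd and 51.7, 57.2 and 41.7 in PR Sd. It was higher in all 3 ripe NSd libraries than in any of the other 9, but by a log2 difference of 0.69 ± 0.13 (SE) against PR NSd (adjusted p = 0.00150), which is under the fold limit.

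MYC2 (LOC105059593) was a low locus that followed the crossed order, with 1.56, 2.47 and 2.73 RPKM in ripe NSd, 5.70, 10.7 and 7.00 in PR NSd, 6.24, 8.06 and 13.2 in ripe Sd and 1.71, 2.52 and 3.53 in PR Sd. Every PR NSd and ripe Sd library lay above every ripe NSd and PR Sd library. The log2 fold change was -1.41 ± 0.28 in ripe NSd against PR NSd, 1.28 ± 0.28 in PR NSd against PR Sd and -1.60 ± 0.28 in ripe NSd against ripe Sd, with adjusted p of 0.00199, 0.00289 and 0.00524. The call between the ripe palms was lost without replicate 4, 5, 6, 8, 11 or 12, without the filter on low loci or in a fit of the compared groups alone (adjusted p 0.0104 to 0.0256), the call in ripe NSd against PR NSd was lost without replicate 2 or 4 (adjusted p 0.01001 to 0.0105), and that in PR NSd against PR Sd was lost without replicate 2, 7 or 8 (adjusted p 0.0111 to 0.0144). The interaction of -2.89 ± 0.40 (adjusted p = 0.000379) was called under all 18 alternatives that give one.

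The other MYC loci did not share this order. MYC2 (LOC105043927) had 16.5, 17.0 and 14.5 RPKM in ripe NSd, 6.70, 7.21 and 11.9 in PR NSd, 15.5, 19.5 and 22.8 in ripe Sd and 19.1, 21.4 and 14.7 in PR Sd, and it was called lower in PR NSd than in PR Sd at -1.04 ± 0.21 (adjusted p = 0.00160), a call lost without replicate 1, 2 or 8, in a fit of the compared groups alone or with RPKM rescaled by the median ratio (adjusted p 0.00771 to 0.0107). MYC4-like (LOC105059368), related to a partner of MYC2, was called higher in ripe NSd than in PR NSd at 1.50 ± 0.21 (adjusted p = 0.000182), and had 9.80, 5.78 and 4.76 RPKM in ripe NSd, 1.90, 1.41 and 1.66 in PR NSd, 7.03, 7.24 and 7.58 in ripe Sd and 4.09, 4.70 and 3.21 in PR Sd. Its PR NSd libraries lay below the other 9. MYC2 (LOC105055031) averaged 9.75 ± 1.66 RPKM in ripe NSd, 9.49 ± 2.95 in PR NSd, 6.54 ± 1.04 in ripe Sd and 7.88 ± 0.984 in PR Sd (SD, n = 3 each) and passed no test.

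The JAM repressors of jasmonate responses were represented by a pair of loci. bHLH13-like (LOC105047615) had 17.8, 17.5 and 15.2 RPKM in ripe NSd, 16.1, 25.6 and 33.8 in PR NSd, 37.2, 39.5 and 46.2 in ripe Sd and 10.8, 14.2 and 24.8 in PR Sd. The ripe Sd libraries lay above all others, and the interaction was -1.82 ± 0.40 (adjusted p = 0.00468), lost without replicate 2, 5, 6, 7, 8, 11 or 12 (adjusted p 0.0108 to 0.0146). The differences of ripe Sd with its neighbours missed the threshold, at 1.33 ± 0.28 in ripe Sd against PR Sd (adjusted p = 0.0175) and -1.23 ± 0.28 in ripe NSd against ripe Sd (adjusted p = 0.0164). Without PR Sd replicate 9, which read 24.8 RPKM, the first was called at 1.64 (adjusted p = 0.00381), and without PR NSd replicate 1 at 1.33 (adjusted p = 0.00975). The second was called in a fit of the compared groups alone (adjusted p = 0.00192). bHLH13 (LOC105038134), chosen for naming after its values were seen, had 24.8, 22.2 and 29.7 RPKM in ripe NSd, 25.0, 35.0 and 36.1 in PR NSd, 39.4, 52.1 and 51.8 in ripe Sd and 20.4, 22.2 and 31.4 in PR Sd and an interaction of -1.24 ± 0.27 (adjusted p = 0.00497). Ripe Sd was again the highest group, with no overlap with the others.

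**Figure D3:**
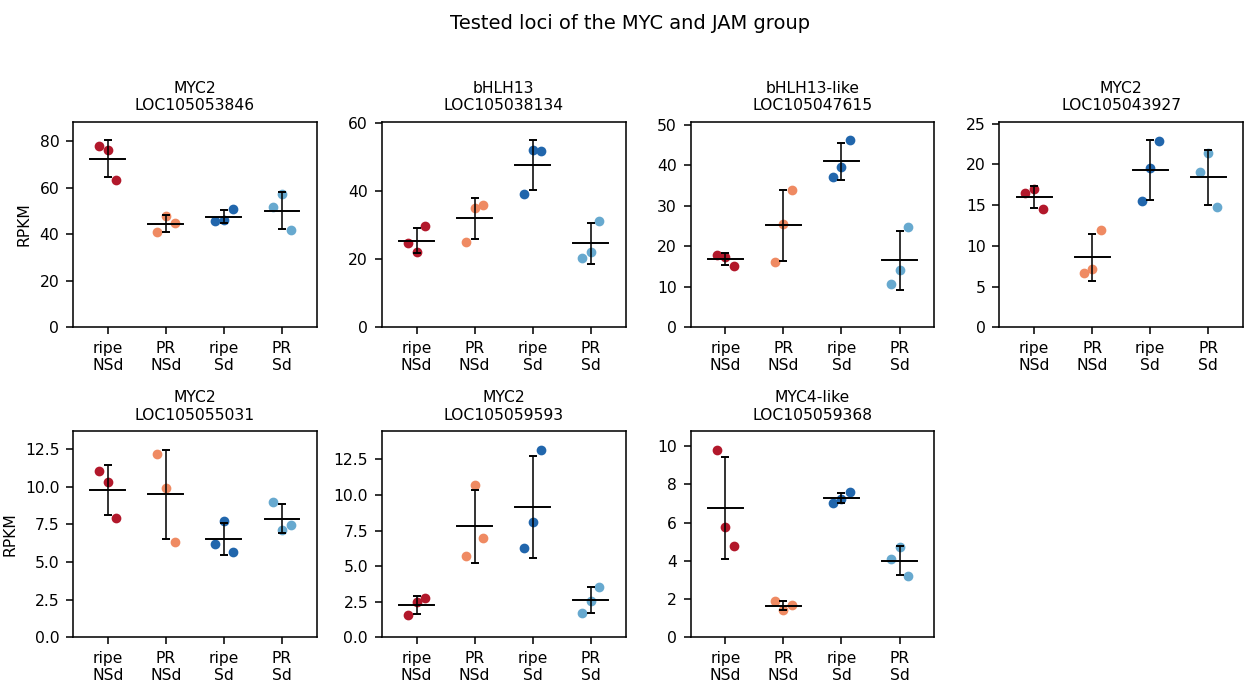
RPKM of the 7 tested loci of the MYC and JAM group in ripe NSd, PR NSd, ripe Sd and PR Sd. Points are libraries, and black lines and bars are the mean and SD (n = 3). MYC2 (LOC105059593) is high in PR NSd and ripe Sd, while bHLH13 and bHLH13-like are highest in ripe Sd and MYC2 (LOC105053846) in ripe NSd.

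BHLH148, which in rice binds JAZ repressors and takes part in the drought response, was the name of 3 loci, and all were called lower in ripe NSd than in PR NSd and higher in PR NSd than in PR Sd. The most abundant, LOC105053434, had 5.88, 18.3 and 44.9 RPKM in ripe NSd, 69.0, 130.4 and 82.5 in PR NSd, 34.8, 47.5 and 37.1 in ripe Sd and 15.6, 19.2 and 29.1 in PR Sd. Ripe NSd replicate 6 stood well above replicates 4 and 5. Its log2 fold change was -2.32 ± 0.52 in ripe NSd against PR NSd (adjusted p = 0.00379), lost without replicate 2 or 5 or in a fit of the compared groups alone (adjusted p 0.0125 to 0.0259). In PR NSd against PR Sd it was 2.08 ± 0.52 (adjusted p = 0.00586), lost without replicate 1, 2, 3, 7 or 8 or without the filter on low loci (adjusted p 0.0107 to 0.0262).

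LOC105046552 had 0.390, 0.649 and 0.593 RPKM in ripe NSd, 4.43, 16.8 and 14.8 in PR NSd, 3.17, 4.18 and 3.85 in ripe Sd and 0.368, 0.488 and 1.33 in PR Sd. PR NSd and ripe Sd lay above the other groups without overlap, by 2.78 ± 0.37 for PR NSd against PR Sd (adjusted p = 0.000108) and by an interaction of -4.39 ± 0.52 (adjusted p = 0.000151). LOC105037285 had 0.240, 0.510 and 1.68 RPKM in ripe NSd, 4.67, 13 and 8.16 in PR NSd, 2.0, 4.61 and 4.19 in ripe Sd and 0.203, 0.186 and 1.17 in PR Sd, with -2.39 ± 0.39 in ripe NSd against PR NSd (adjusted p = 0.000553) and an interaction of -4.0 ± 0.55 (adjusted p = 0.000364). All calls of these loci were made under every alternative. In ripe Sd against PR Sd they missed the threshold at 1.49 ± 0.37 and 1.61 ± 0.39 (adjusted p = 0.0329 and 0.0306), and the first was called there without PR NSd replicate 1, at 1.49 (adjusted p = 0.00262).

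The other 6 loci with rice numbers were not called in any comparison. BHLH062 is named after a rice protein that binds JAZ repressors, and LOC105058334 of that name was among the steadiest members, at 32.8 ± 1.21 RPKM in ripe NSd, 37.5 ± 4.24 in PR NSd, 37.4 ± 4.72 in ripe Sd and 34.1 ± 3.26 in PR Sd (SD, n = 3 each). BHLH089 (LOC105054255) averaged 38.6 ± 4.52 RPKM in ripe NSd, 27.7 ± 1.11 in PR NSd, 40.4 ± 1.60 in ripe Sd and 41.4 ± 3.62 in PR Sd (SD, n = 3 each). Its difference in PR NSd against PR Sd was -0.56 ± 0.11 (adjusted p = 0.00133), and BHLH089 (LOC105046432) gave -0.74 ± 0.12 there (adjusted p = 0.000505) and 0.95 ± 0.12 in ripe NSd against PR NSd (adjusted p = 0.00013), all under the fold limit. These loci were chosen for naming after their values were seen.

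bHLH18 (LOC105058167) was the member with the largest interaction and was called in all 5 comparisons. In Arabidopsis, bHLH18 and its subfamily partners promote the jasmonate-induced breakdown of the iron uptake regulator FIT. It had 8.07, 11.2 and 14.9 RPKM in ripe NSd, 34.9, 92.0 and 89.6 in PR NSd, 105, 149 and 204 in ripe Sd and 5.52, 7.25 and 39.8 in PR Sd. Ripe Sd lay above all other libraries, PR NSd overlapped with PR Sd only through PR Sd replicate 9, and PR Sd replicate 9 stood at several times the level of replicates 7 and 8. The log2 fold change was 3.51 ± 0.59 in ripe Sd against PR Sd (adjusted p = 0.00747) and -3.61 ± 0.59 in ripe NSd against ripe Sd (adjusted p = 0.00375). The first call was lost without replicate 2, 5, 6, 7, 8, 10, 11 or 12, without the filter on low loci, in a fit of the compared groups alone, with robust moderation or without the 3 PR NSd libraries (adjusted p 0.0104 to 0.0415). Without PR Sd replicate 9 the log2 fold change was 4.33 (adjusted p = 0.000441). The call between the ripe palms was lost without replicate 4, 5, 6, 11 or 12 (adjusted p 0.0106 to 0.0233).

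Within the NSd palm bHLH18 ran the other way. It was called lower in ripe NSd than in PR NSd at -2.47 ± 0.59 (adjusted p = 0.00563), lost without replicate 2, 3, 4 or 5 or without the filter on low loci (adjusted p 0.0106 to 0.0239). PR NSd against PR Sd gave 2.37 ± 0.59 (adjusted p = 0.00600), lost without replicate 2, 3, 7 or 8, without the filter on low loci or in a fit of the compared groups alone (adjusted p 0.0112 to 0.0309). The interaction of -5.98 ± 0.84 (adjusted p = 0.000406) was called under all alternatives. The other 7 loci of its subfamily were low, with 1 at 0 throughout and none called, and bHLH18 (LOC105058167) made up nearly all of the subfamily's summed RPKM of 12.1 ± 2.98 in ripe NSd, 72.9 ± 32.7 in PR NSd, 154 ± 50.4 in ripe Sd and 18.2 ± 19.5 in PR Sd.

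bHLH35 was the name of 3 tested loci in the subfamily that in Arabidopsis holds FIT, and 2 of them followed the crossed order. LOC105050852 had 7.31, 11.3 and 18.5 RPKM in ripe NSd, 65.3, 157 and 144 in PR NSd, 42.6, 67 and 84.0 in ripe Sd and 14.5, 13.9 and 36.0 in PR Sd. The fall in ripe NSd against PR NSd was -3.19 ± 0.44 (adjusted p = 0.000187), and PR NSd against PR Sd gave 2.49 ± 0.44 (adjusted p = 0.000722), both called under all alternatives. Between the ripe palms it was lower in ripe NSd at -2.33 ± 0.44 (adjusted p = 0.00713), lost without replicate 2, 4, 5, 8, 11 or 12, without the filter on low loci or with robust moderation (adjusted p 0.0103 to 0.0386). Ripe Sd against PR Sd gave 1.63 ± 0.44 and missed the threshold (adjusted p = 0.0455).

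LOC105049326 stood well below these levels, with 1.05, 1.61 and 1.50 RPKM in ripe NSd, 3.75, 10.8 and 8.50 in PR NSd, 3.58, 5.95 and 6.78 in ripe Sd and 1.26, 1.44 and 2.51 in PR Sd. Its order of groups was that of LOC105050852, with -1.77 ± 0.31 in ripe NSd against PR NSd and 1.59 ± 0.31 in PR NSd against PR Sd (adjusted p = 0.000924 and 0.00144). The remaining bHLH35 (LOC105039315) was low and averaged 1.07 ± 0.463 RPKM in ripe NSd, 0.276 ± 0.0947 in PR NSd, 3.31 ± 1.08 in ripe Sd and 1.50 ± 0.672 in PR Sd (SD, n = 3 each), with no call.

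**Figure D4:**
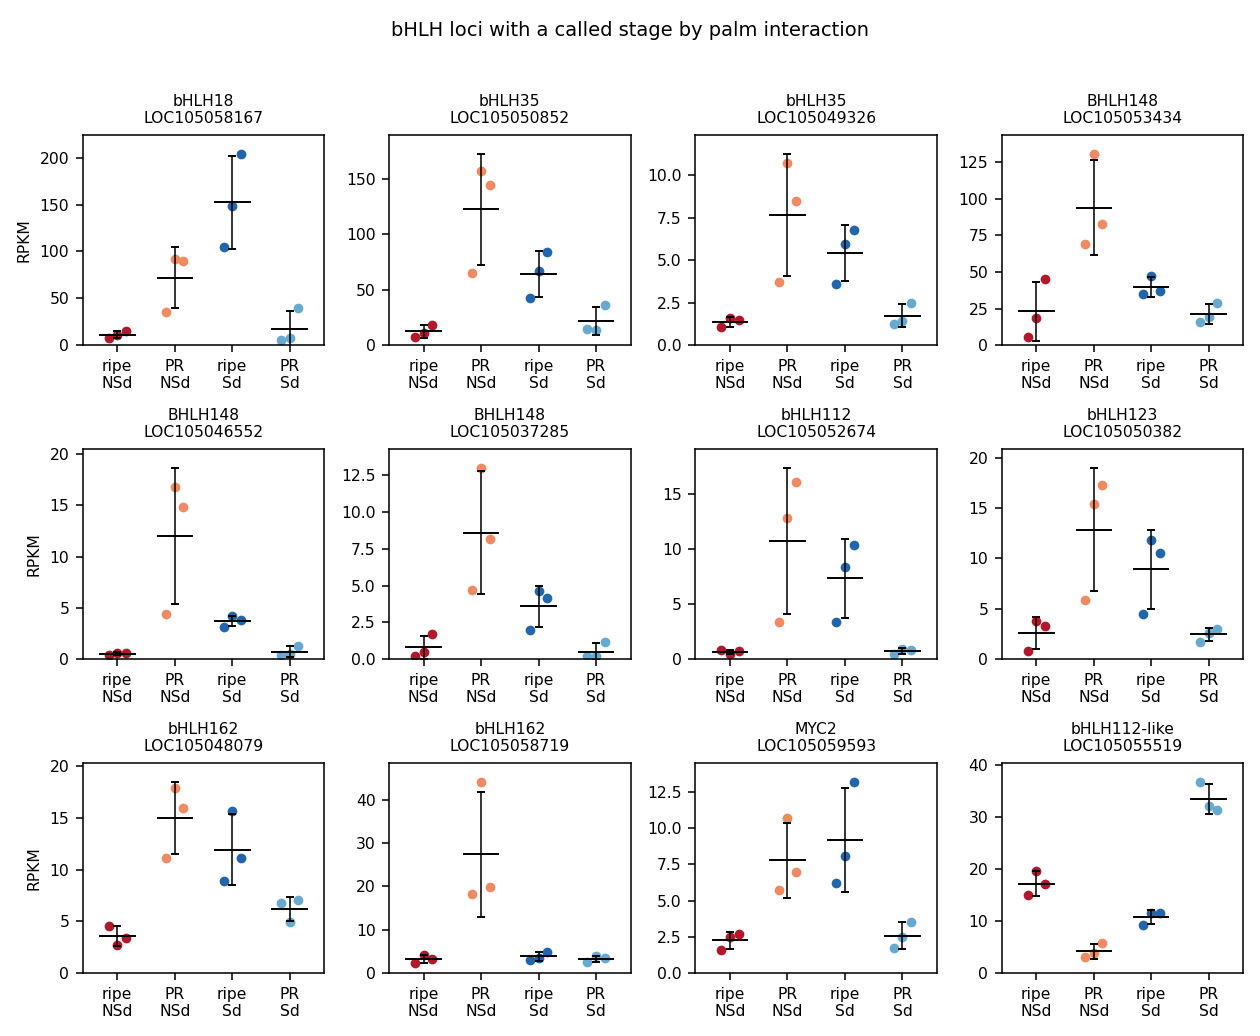
RPKM of 12 bHLH loci with a called stage by palm interaction, in ripe NSd, PR NSd, ripe Sd and PR Sd. Points are libraries, and black lines and bars are the mean and SD (n = 3). All but bHLH112-like are higher in PR NSd than in ripe NSd, bHLH162 (LOC105058719) is high only in the PR NSd libraries, and bHLH112-like is lowest in PR NSd.

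Subfamily Vb, whose Arabidopsis members act in drought and salt responses and in root growth, held 16 loci. Of the 13 tested, 6 were called in some comparison, in both directions, as were 37 of all 93 tested members. The share of all loci called in any comparison was not counted. bHLH112-like (LOC105055519) was, beside bHLH18, the only member called in ripe Sd against PR Sd. It had 14.9, 19.6 and 17.1 RPKM in ripe NSd, 3.05, 3.85 and 5.81 in PR NSd, 9.31, 11.6 and 11.6 in ripe Sd and 36.7, 32.1 and 31.3 in PR Sd. No library of a group overlapped with another group, and the order was PR Sd, ripe NSd, ripe Sd and PR NSd. It fell in ripe Sd against PR Sd at -1.54 ± 0.18 (adjusted p = 0.00126), a call made under all 20 alternatives. Ripe NSd exceeded PR NSd by 1.82 ± 0.18, and the locus was lower in PR NSd than in PR Sd at -2.74 ± 0.18 (adjusted p = 2.08e-05 and 8.68e-07). The interaction was 3.36 ± 0.25 (adjusted p = 1.71e-05).

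bHLH112 (LOC105052674) went in the opposite direction. It had 0.832, 0.476 and 0.740 RPKM in ripe NSd, 3.34, 12.8 and 16 in PR NSd, 3.38, 8.30 and 10.3 in ripe Sd and 0.449, 0.966 and 0.808 in PR Sd, and its ripe NSd and PR Sd libraries were all below 1 RPKM. The log2 fold change was -2.58 ± 0.45 in ripe NSd against PR NSd, 2.54 ± 0.45 in PR NSd against PR Sd and -4.75 ± 0.64 for the interaction (adjusted p = 0.000866, 0.000781 and 0.000330), called under all alternatives. Ripe Sd against PR Sd gave 2.16 ± 0.45 (adjusted p = 0.0169), and it was called without PR NSd replicate 1 (adjusted p = 0.00334) and without all 3 PR NSd libraries (adjusted p = 0.00621). In that last fit bHLH112 was also called lower in ripe NSd than in ripe Sd (-2.20, adjusted p = 0.00369).

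bHLH123 (LOC105050382) likewise had its highest libraries in PR NSd and ripe Sd, with 0.803, 3.79 and 3.30 RPKM in ripe NSd, 5.89, 15.4 and 17.3 in PR NSd, 4.45, 11.8 and 10.6 in ripe Sd and 1.73, 2.63 and 3.04 in PR Sd. It was called lower in ripe NSd than in PR NSd at -1.93 ± 0.45 (adjusted p = 0.00481), lost without replicate 2, 3 or 4 or in a fit of the compared groups alone (adjusted p 0.0184 to 0.0210). In PR NSd against PR Sd it was higher at 1.90 ± 0.45 (adjusted p = 0.00448), lost without replicate 2, 3, 7 or 8 (adjusted p 0.0142 to 0.0198). The interaction of -3.38 ± 0.64 (adjusted p = 0.00217) was called in every fit. The abundant bHLH112 (LOC105035841) had 25.5, 41.4 and 43.5 RPKM in ripe NSd, 71.3, 128 and 149 in PR NSd, 42.6, 74.4 and 79.2 in ripe Sd and 49.7, 57.9 and 50.7 in PR Sd, and was called lower in ripe NSd than in PR NSd at -1.61 ± 0.30 (adjusted p = 0.00125). Its interaction of -1.86 ± 0.42 (adjusted p = 0.00581) was lost without replicate 2, 3, 4, 5, 7, 8, 9, 11 or 12 or without the filter on low loci (adjusted p 0.0103 to 0.0177).

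Another pair of Vb loci were higher in ripe NSd than in PR NSd. bHLH113 (LOC105057700) had 56.7, 40.05 and 41.9 RPKM in ripe NSd, 19.0, 14.9 and 17.7 in PR NSd, 28.7, 25.5 and 21.8 in ripe Sd and 39.4, 38.3 and 28.7 in PR Sd, and its log2 fold change in ripe NSd against PR NSd was 1.36 ± 0.17 (adjusted p = 0.000101). bHLH103 (LOC105055414) had 3.11, 3.45 and 5.68 RPKM in ripe NSd, 0.933, 1.75 and 0.710 in PR NSd, 3.18, 4.06 and 3.97 in ripe Sd and 10.1, 7.16 and 9.23 in PR Sd. The rise in ripe NSd against PR NSd was 1.25 ± 0.22, and it was lower in PR NSd than in PR Sd at -2.22 ± 0.22 (adjusted p = 0.000913 and 1.56e-05), and all its calls were made under every alternative.

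bHLH162, the name of the most abundant member, was carried by 5 tested loci, and 3 of them were called lower in ripe NSd than in PR NSd. LOC105056299, the most abundant, gave -1.29 ± 0.22 there (adjusted p = 0.000821) and stood 0.96 ± 0.22 higher in PR NSd than in PR Sd, just under the fold limit (adjusted p = 0.00388). Its interaction of -1.39 ± 0.32 (adjusted p = 0.00601) was lost without replicate 1, 2, 4, 5, 7, 8, 10 or 11 or without the filter on low loci (adjusted p 0.0106 to 0.0190). LOC105048079 had 4.59, 2.69 and 3.36 RPKM in ripe NSd, 11.1, 17.9 and 15.9 in PR NSd, 8.93, 15.7 and 11.2 in ripe Sd and 6.77, 4.91 and 7.03 in PR Sd. It was lower in ripe NSd than in ripe Sd at -1.50 ± 0.23 (adjusted p = 0.00286), lost without replicate 5, 6, 11 or 12 (adjusted p 0.0114 to 0.0159), and lower in ripe NSd than in PR NSd at -1.81 ± 0.23 (adjusted p = 0.000121). In PR NSd against PR Sd it was higher at 1.13 ± 0.23 (adjusted p = 0.00186), lost without replicate 2 or 8 (adjusted p 0.00981 to 0.0109).

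LOC105058719 of the same name was raised in PR NSd alone among the 4 groups. It had 2.43, 4.14 and 3.22 RPKM in ripe NSd, 18.3, 44.0 and 19.9 in PR NSd, 3.08, 3.54 and 4.96 in ripe Sd and 2.52, 3.92 and 3.47 in PR Sd, and 9 of the 12 libraries lay between 2.43 and 4.96 RPKM. The log2 fold change was -2.64 ± 0.29 in ripe NSd against PR NSd and 2.63 ± 0.29 in PR NSd against PR Sd (adjusted p = 4.68e-05 and 3.42e-05), called under all alternatives. LOC105040557, also called bHLH162 and named after its values were seen, averaged 8.44 ± 6.07 RPKM in ripe NSd, 55.4 ± 37.2 in PR NSd, 26.7 ± 14.8 in ripe Sd and 26.3 ± 8.85 in PR Sd (SD, n = 3 each), and its difference of -2.46 ± 0.71 in ripe NSd against PR NSd missed the threshold (adjusted p = 0.0141).

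Subfamily XII, which in Arabidopsis holds the brassinosteroid-induced BEE factors and the blue-light CIB factors, was the largest with 23 loci, of which 15 were tested. In ripe NSd against PR NSd 5 were called higher and none lower, and in PR NSd against PR Sd none were called higher and 4 lower, in the direction of the median over all loci. Over all loci 7.77% were called higher and 3.07% lower in the first comparison, and 3.36% and 9.53% in the second. At an unadjusted p under 0.05 the counts were 11 higher and 2 lower in the first comparison and 0 higher and 10 lower in the second, where 45.6% of all loci were higher and 9.43% lower in the first and 9.78% higher and 49.0% lower in the second. The median log2 change of the 15 was 0.75 in ripe NSd against PR NSd, against 0.31 over all loci. The summed RPKM of all 23 loci was 507 ± 168 in ripe NSd, 181 ± 5.81 in PR NSd, 244 ± 49.4 in ripe Sd and 324 ± 57.9 in PR Sd. bHLH63 (LOC105058752) made up most of the sum in every group, with means of 422, 121, 148 and 227 RPKM in the same order.

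The members called higher in ripe NSd than ripe Sd were both named bHLH63. LOC105058752, whose libraries are given above, was higher at 1.52 ± 0.29 (adjusted p = 0.00801), lost without replicate 1, 2, 3, 4, 5, 6, 8, 11 or 12, without the filter on low loci, in a fit of the compared groups alone, with robust moderation or without the 3 PR NSd libraries (adjusted p 0.0102 to 0.0356). All 3 ripe NSd libraries lay above the other 9, and replicate 4 was highest. Ripe NSd against PR NSd gave 1.74 ± 0.29 (adjusted p = 0.000707), and the interaction 2.39 ± 0.42 (adjusted p = 0.00137). LOC105048370 had 19.0, 4.95 and 7.63 RPKM in ripe NSd, 1.22, 2.91 and 1.83 in PR NSd, 2.33, 0.995 and 1.74 in ripe Sd and 0.809, 0.679 and 1.16 in PR Sd. It was higher in ripe NSd than ripe Sd at 1.94 ± 0.37 (adjusted p = 0.00788), lost without replicate 2, 3, 4, 6, 7, 8, 10, 11 or 12, without the filter on low loci, in a fit of the compared groups alone or without the 3 PR NSd libraries (adjusted p 0.0107 to 0.0412), and higher in ripe NSd than in PR NSd at 1.80 ± 0.37 (adjusted p = 0.00248), lost without replicate 1 or in a fit of the compared groups alone (adjusted p 0.0122 to 0.0184). Replicate 4 was again the highest.

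bHLH77 (LOC105048892) had 8.32, 6.37 and 5.14 RPKM in ripe NSd, 1.71, 2.09 and 1.57 in PR NSd, 3.36, 4.31 and 4.66 in ripe Sd and 6.68, 6.03 and 4.27 in PR Sd, and PR NSd lay below all other libraries. It was higher in ripe NSd than in PR NSd at 1.43 ± 0.19 (adjusted p = 0.000140), and lower in PR NSd than in PR Sd at -1.24 ± 0.19 (adjusted p = 0.000268), lost with RPKM rescaled by the median ratio (adjusted p = 0.00107) because its fold change then passed under the limit. bHLH48 (LOC105050500), whose Arabidopsis namesake acts in flowering time, had 5.30, 7.61 and 6.95 RPKM in ripe NSd, 2.54, 3.24 and 2.51 in PR NSd, 7.14, 7.28 and 6.41 in ripe Sd and 8.35, 9.85 and 11.7 in PR Sd. Its log2 fold change was -1.54 ± 0.15 in PR NSd against PR Sd (adjusted p = 1.72e-05) and 1.01 ± 0.15 in ripe NSd against PR NSd (adjusted p = 0.000385), the last lost without replicate 1, 3, 5 or 6 or with RPKM rescaled by the median ratio (adjusted p 0.00166 to 0.00538) as its fold change passed under the limit. bHLH62 (LOC105033952) had 8.24, 6.22 and 4.77 RPKM in ripe NSd, 0.999, 2.41 and 3.30 in PR NSd, 7.86, 8.30 and 9.38 in ripe Sd and 5.77, 8.10 and 9.17 in PR Sd, with -1.47 ± 0.26 in PR NSd against PR Sd (adjusted p = 0.000834). Its rise in ripe NSd against PR NSd, 1.24 ± 0.26 (adjusted p = 0.00292), was lost without replicate 1, 4 or 5, in a fit of the compared groups alone or with RPKM rescaled by the median ratio (adjusted p 0.00756 to 0.0200). bHLH49-like (LOC105049901), which the study lists, had 0.513, 0.489 and 0.304 RPKM in ripe NSd, 0.0260, 0.0137 and 0.0154 in PR NSd, 1.21, 0.942 and 1.04 in ripe Sd and 0.372, 0.484 and 0.525 in PR Sd. It was not called because of the fold limit in PR NSd against PR Sd (-0.52 ± 0.13, adjusted p = 0.00522) and in ripe NSd against PR NSd (0.49 ± 0.13, adjusted p = 0.00824), on a scale that compresses values below 1 RPKM. The difference in ripe NSd against ripe Sd was -0.52 ± 0.13 (adjusted p = 0.0214).

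**Figure D5:**
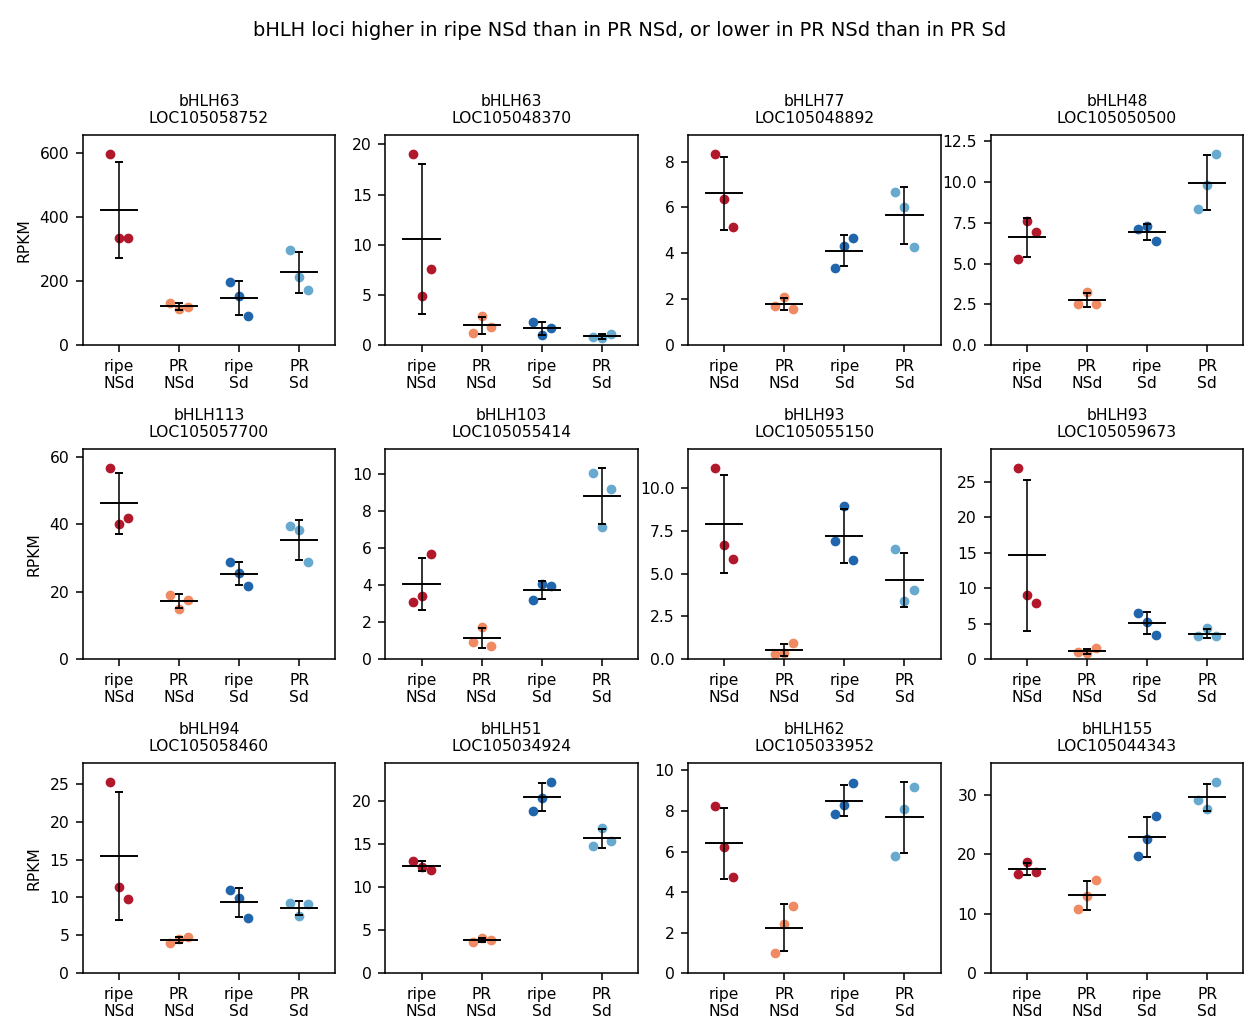
RPKM of 12 bHLH loci called higher in ripe NSd than in PR NSd or lower in PR NSd than in PR Sd, in ripe NSd, PR NSd, ripe Sd and PR Sd. Points are libraries, and black lines and bars are the mean and SD (n = 3). The PR NSd libraries are the lowest group at all loci but the bHLH63 locus LOC105048370, and both bHLH63 loci are highest in ripe NSd.

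The ICE group, factors of cold response and stomata in Arabidopsis, held 7 loci, and its 4 tested loci were all lower in PR NSd than in PR Sd at an unadjusted p under 0.05, as were 49.0% of all loci. Their summed RPKM with the untested loci was 38.2 ± 12.1 in ripe NSd, 12.1 ± 1.14 in PR NSd, 32.6 ± 1.39 in ripe Sd and 27.4 ± 2.09 in PR Sd. Both tested ICE1 loci missed the fold limit, and ICE1 (LOC105034895), at most 0.224 RPKM in any library, was not tested. ICE1 (LOC105051080) had 8.11, 9.51 and 10.8 RPKM in ripe NSd, 5.23, 5.96 and 5.54 in PR NSd, 12.4, 13.1 and 13.7 in ripe Sd and 10.6, 11.7 and 10.7 in PR Sd, with -0.87 ± 0.12 in PR NSd against PR Sd (adjusted p = 0.000124). ICE1 (LOC105036068) averaged 6.04 ± 0.257 RPKM in ripe NSd, 4.90 ± 0.389 in PR NSd, 7.21 ± 0.866 in ripe Sd and 8.18 ± 1.03 in PR Sd (SD, n = 3 each), with -0.63 ± 0.12 (adjusted p = 0.00143).

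The calls of this group were at its bHLH93 loci, whose Arabidopsis namesake is needed for flowering in short days. LOC105055150 had 11.1, 6.67 and 5.84 RPKM in ripe NSd, 0.296, 0.346 and 0.974 in PR NSd, 6.90, 8.92 and 5.81 in ripe Sd and 6.41, 3.39 and 4.05 in PR Sd. Every PR NSd library was under 1 RPKM and every other library above 3, with 2.51 ± 0.26 in ripe NSd against PR NSd and -1.86 ± 0.26 in PR NSd against PR Sd (adjusted p = 3.19e-05 and 0.000174). LOC105059673 had 26.9, 9.10 and 7.96 RPKM in ripe NSd, 0.983, 0.835 and 1.54 in PR NSd, 6.51, 5.21 and 3.46 in ripe Sd and 3.25, 4.35 and 3.21 in PR Sd, and ripe NSd replicate 4 stood at about 3 times replicates 5 and 6. Its log2 fold change was 2.70 ± 0.36 in ripe NSd against PR NSd (adjusted p = 0.000151). The interaction of 2.33 ± 0.51 (adjusted p = 0.00474) was lost without replicate 1, 2, 7, 8, 11 or 12 (adjusted p 0.0105 to 0.0151).

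bHLH51 (LOC105034924) was the only called locus of the 8 in subfamily Va, a group with stress-response members in Arabidopsis. It had 13.1, 12.3 and 11.9 RPKM in ripe NSd, 3.61, 4.06 and 3.81 in PR NSd, 18.8, 20.3 and 22.1 in ripe Sd and 14.8, 16.9 and 15.3 in PR Sd, so that no 2 groups overlapped. The log2 fold change was 1.48 ± 0.10 in ripe NSd against PR NSd (adjusted p = 2.13e-06) and -1.78 ± 0.10 in PR NSd against PR Sd (adjusted p = 4.12e-07). Between the ripe palms it was -0.67 ± 0.10 (adjusted p = 0.00292), under the fold limit, and the interaction of 1.11 ± 0.15 (adjusted p = 0.000303) was lost with RPKM rescaled by the median ratio (adjusted p = 0.000649).

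bHLH94 (LOC105058460), of the subfamily that holds the stomatal factors SPEECHLESS, MUTE and FAMA in Arabidopsis, had 25.2, 11.4 and 9.73 RPKM in ripe NSd, 3.96, 4.46 and 4.73 in PR NSd, 10.9, 9.96 and 7.25 in ripe Sd and 9.21, 7.49 and 9.14 in PR Sd. It was higher in ripe NSd than in PR NSd at 1.50 ± 0.27 (adjusted p = 0.00113), lost in a fit of the compared groups alone (adjusted p = 0.0117). bHLH146 (LOC105039278), of the atypical members that in Arabidopsis act by binding other bHLH proteins, had 4.63, 1.68 and 2.35 RPKM in ripe NSd, 0, 0.0941 and 0.317 in PR NSd, 2.01, 0.513 and 0.0902 in ripe Sd and 0.119, 0.618 and 0.231 in PR Sd. Ripe NSd exceeded PR NSd by 1.71 ± 0.35 (adjusted p = 0.00226), lost without replicate 4 (adjusted p = 0.0108). bHLH155 (LOC105044343), of the subfamily of vascular regulators, was lower in PR NSd than in PR Sd at -1.13 ± 0.14 (adjusted p = 8.12e-05) with 16.7, 18.7 and 17.1 RPKM in ripe NSd, 10.7, 12.9 and 15.6 in PR NSd, 19.8, 22.5 and 26.4 in ripe Sd and 29.1, 27.7 and 32.1 in PR Sd, a call lost with RPKM rescaled by the median ratio (adjusted p = 0.000392) as its fold change passed under the limit.

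A further 6 members were called in at least 1 comparison and are named after their values were seen. bHLH153 (LOC105051461) was higher in PR NSd than in PR Sd at 1.18 ± 0.30 (adjusted p = 0.00711), and bHLH66 (LOC105060198), related to root hair factors, at 1.21 ± 0.25 (adjusted p = 0.00211). Lower in PR NSd than in PR Sd were bHLH48 (LOC105039474), at -1.01 ± 0.18, and bHLH154 (LOC105046616), at -1.04 ± 0.19 (adjusted p = 0.000721 and 0.00104). bHLH147 (LOC105044993), an atypical member, was higher in ripe NSd than in PR NSd at 1.02 ± 0.21 (adjusted p = 0.00262), and bHLH128 (LOC105038654) was called for its interaction of 1.08 ± 0.25 (adjusted p = 0.00605).

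Some abundant members had no call. bHLH115 (LOC105055398), which in Arabidopsis takes part in sensing iron status, had 62.3, 54.5 and 48.4 RPKM in ripe NSd, 35.6, 47.5 and 47.6 in PR NSd, 44.1, 48.4 and 55.6 in ripe Sd and 42.7, 48.2 and 40.4 in PR Sd, and its difference with the smallest adjusted p was 0.34 ± 0.15 in ripe NSd against PR NSd (adjusted p = 0.0759). bHLH129 (LOC105051406) averaged 51.6 ± 14.1 RPKM in ripe NSd, 31.8 ± 9.31 in PR NSd, 51.4 ± 6.79 in ripe Sd and 54.1 ± 11.6 in PR Sd (SD, n = 3 each) and passed no test, with -0.76 ± 0.24 in PR NSd against PR Sd (adjusted p = 0.0199). In all, 56 of the 93 tested members were called in no comparison, which does not show that they were level. The matching share over all loci was not counted.

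Some sets of members were nearly silent. Both PIF loci stayed below 1 RPKM, and their sum averaged 0.129 ± 0.107 in ripe NSd, 0.371 ± 0.349 in PR NSd, 0.580 ± 0.215 in ripe Sd and 0.322 ± 0.0974 in PR Sd. PIF factors are the light-regulated members that bind phytochromes. Of the 5 loci named after root hair factors (RHD6 and RSL), 4 were at 0 in all 12 libraries. The bHLH87 loci, relatives of the Arabidopsis fruit-opening factor INDEHISCENT, averaged at most 0.0286 RPKM in sum in any group, and 1 was at 0. A count of 0 allows up to 3 reads, or 0.105 RPKM for a transcript of 1500 bases in the shallowest library, for counting error only. bHLH041 (LOC105041454), which the study lists, had 0, 0 and 0.0521 RPKM in ripe NSd, 0.691, 0.940 and 0.740 in PR NSd, 0.0836, 0.743 and 0.338 in ripe Sd and 0.0148, 0 and 0.0231 in PR Sd and was below the limit for testing.

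The jasmonate pathway around these factors was read from lists built on locus descriptions and tested in the same limma fit. Of 16 TIFY loci, the family that holds the JAZ repressors, 2 were called higher and 7 lower in ripe NSd than in PR NSd, and 7 higher and 3 lower in PR NSd than in PR Sd. Over all loci 7.77% were called higher and 3.07% lower in the first comparison, and 3.36% and 9.53% in the second. In ripe NSd against ripe Sd 4 were called lower and 0 higher (at unadjusted p under 0.05, 9 were lower and 2 higher), and in ripe Sd against PR Sd 2 were called higher and 0 lower (11 higher and 0 lower at an unadjusted p under 0.05). Over all loci 1.63% were called lower and 0.815% higher between the ripe palms (18.0% and 10.3% at the unadjusted limit). In ripe Sd against PR Sd, 0.659% of all loci were called higher and 0.429% lower (12.5% and 10.1%). The interaction was called below 0 at 8 of the 16 and above 0 at 3, where 4.07% and 9.19% of all loci were called. The median log2 change of the 16 was -0.57 in ripe NSd against PR NSd, against 0.31 over all loci, and 1.07 in ripe Sd against PR Sd, against 0.03. TIFY 9 (LOC105051062), named after its values were seen, had its higher means in PR NSd and ripe Sd, like MYC2 (LOC105059593). TIFY 9 averaged 3.92 RPKM in ripe NSd and 33.1 in PR NSd, against 12.2 in ripe Sd and 2.21 in PR Sd.

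Fewer of the other jasmonate loci were called. Of 23 tested loci for jasmonate synthesis, 2 were called higher and 3 lower in ripe NSd than in PR NSd, and 4 higher and 2 lower in PR NSd than in PR Sd. The shares over all loci were 7.77% higher and 3.07% lower in the first comparison, and 3.36% and 9.53% in the second. In ripe NSd against ripe Sd 0 of the 23 were called higher and 2 lower (0.815% and 1.63% of all loci). At an unadjusted p under 0.05, 1 was higher and 8 lower there (10.3% and 18.0% of all loci). In ripe Sd against PR Sd 1 was called higher and 0 lower (0.659% and 0.429%). The interaction was called above 0 at 2 and below 0 at 5 (9.19% and 4.07%). Allene oxide synthase 2 (LOC105039328), an enzyme of that pathway, was lower in ripe NSd than in ripe Sd at -1.61 (adjusted p = 0.00578) and higher in ripe Sd than in PR Sd at 1.70 (adjusted p = 0.00756). Of 14 tested loci for the receptor COI1, the adaptor NINJA and the corepressor TOPLESS, 3 were called higher in ripe NSd than in PR NSd (7.77% of all loci) and 1 lower in PR NSd than in PR Sd (9.53% of all loci). The last was COI1 homolog 1b (LOC105034251), with means of 36.1 RPKM in ripe NSd and 14.0 in PR NSd, against 29.0 in ripe Sd and 34.4 in PR Sd. Between the ripe palms 1 of these 14 loci was called higher and 0 lower in ripe NSd. At an unadjusted p under 0.05, 5 were higher and 0 lower there (10.3% and 18.0% of all loci). The interaction was called above 0 at 2 of the 14 and below 0 at 0 (9.19% and 4.07% of all loci).

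Iron uptake is the pathway in which bHLH18, bHLH35 and bHLH115 have relatives in Arabidopsis. Of 15 tested loci for iron uptake and nicotianamine, 7 were called higher and 0 lower in ripe NSd than in PR NSd (10 higher and 0 lower at an unadjusted p under 0.05), and 0 higher and 8 lower in PR NSd than in PR Sd (0 higher and 12 lower). Over all loci 7.77% were called higher in the first comparison and 9.53% lower in the second, and 45.6% and 49.0% passed the unadjusted limit in those directions. Their median log2 change was 0.98 in ripe NSd against PR NSd and -1.05 in PR NSd against PR Sd, against 0.31 and -0.35 over all loci. bHLH18 (LOC105058167) and the bHLH35 loci LOC105050852 and LOC105049326 changed in the opposite direction in both comparisons. The remaining bHLH35 locus (LOC105039315) changed in the direction of the iron loci, at 0.68 ± 0.25 and -0.93 ± 0.25, with no call. bHLH115 (LOC105055398) gave 0.34 ± 0.15 and -0.01 ± 0.15, also with no call. Neighbouring members, named after their values were seen, differed as well. bHLH121 (LOC105044120, subfamily IVb) changed in the direction of the iron loci, at 0.54 ± 0.19 and -0.56 ± 0.19. bHLH104 (LOC105043071), of the subfamily of bHLH115, gave -0.26 ± 0.23 and -0.0027 ± 0.23, and neither locus was called.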

How the data were processed

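RNA from the fruit-base AZ of 2 palms was sequenced by the authors (single reads, 100 cycles), trimmed with bcl2fastq 2.20.0.422 and aligned with BWA-MEM at default settings to an E. guineensis transcriptome. SAMtools counted the reads and transcripts of a locus were merged. The deposited values are RPKM, computed by the authors per library with no pooling, and no count table was used here. Read totals, recovered from the steps between low RPKM values (relative tolerance 1e-06), ran between 19090375 and 34004517 per library and add up to 277584786. Reads split among similar loci and the use of a transcriptome from another species can lower or move values. A row without a locus name was dropped from each file.

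Values of log2(RPKM + 1) at the 20495 loci that reached 1 RPKM in any library entered limma 3.58.1 (R 4.3.3) as 1 mean per group, with the variance fitted as a trend over level. Ripe was tested against PR in each palm, NSd against Sd at each stage, and the interaction of stage and palm, with p adjusted over all tested loci. A design for read counts, as in the study, was not used because the files hold RPKM. The code was tested on simulated data. Alternatives were no filter, a pseudocount of 0.1, only the compared groups, an adjusted p under 0.05 without a fold limit, rescaling by median ratio, no trend, robust moderation, leaving out each library and leaving out the 3 PR NSd libraries. Placing names in capitals under the rice numbering was decided after seeing the data. Tables and plots were made with Python 3.11.15, numpy 2.4.6, pandas 2.3.3 and matplotlib 3.10.9.

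Members, lists and rules were chosen with earlier results of these data known. Named loci were every called member (with more than 16 calls in a comparison, the 8 highest and 8 lowest), the 8 highest by mean RPKM, members in the study's tables and tested MYC2, MYC4, ICE1 or PIF loci. Named loci outside the bHLH search, in the jasmonate paragraphs and under other observations, were chosen after their values were seen. Sequences of the loci were not used here.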

Additional observations from a re-analysis of the deposited data

Results flagged for a closer look

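The difference between the ripe and the PR bunch was not the same in the palms at 23 of the named bHLH loci. This was judged by limma's interaction term (the ripe minus PR difference in NSd less that in Sd, on the log2 scale, adjusted p under 0.01 and a size above 1). Many loci were named because they were called, so 23 is not a share of the family. Of all 93 tested members, 10 were called above 0 (10.8%) and 17 below 0 (18.3%), against 9.19% and 4.07% of all tested loci. Below 0, so that the change in NSd was lower than that in Sd, were bHLH18 (LOC105058167) at -5.98, bHLH35 (LOC105050852) at -4.82, bHLH112 (LOC105052674) at -4.75, BHLH148 (LOC105046552) at -4.39, BHLH148 (LOC105037285) at -4.0, bHLH123 (LOC105050382) at -3.38, BHLH148 (LOC105053434) at -3.23 and bHLH35 (LOC105049326) at -3.0. Smaller values below 0 were found at MYC2 (LOC105059593) at -2.89, bHLH162 (LOC105058719) at -2.81, bHLH162 (LOC105048079) at -2.63, bHLH112 (LOC105035841) at -1.86, bHLH13-like (LOC105047615) at -1.82 and bHLH162 (LOC105056299) at -1.39. Above 0 were bHLH112-like (LOC105055519) at 3.36, bHLH63 (LOC105058752) at 2.39, bHLH93 (LOC105059673) at 2.33, bHLH103 (LOC105055414) at 2.30, bHLH93 (LOC105055150) at 1.94, bHLH113 (LOC105057700) at 1.83, bHLH77 (LOC105048892) at 1.81, bHLH48 (LOC105050500) at 1.47 and bHLH51 (LOC105034924) at 1.11. The interaction draws on all 4 groups. bHLH18 (LOC105058167) changed by 3.51 in Sd and -2.47 in NSd, and bHLH13-like (LOC105047615) by 1.33 and -0.50. bHLH162 (LOC105058719) changed by 0.17 in Sd and -2.64 in NSd. The PR NSd libraries stood apart from the other 9 in median RPKM and in photosynthesis loci, and the part of this in the values was not tested. No group had the 4 or more libraries needed to look for a library far from the others.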

How the results depend on the processing

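The numbers of bHLH loci called were 2 in ripe Sd against PR Sd, 6 in ripe NSd against ripe Sd, 29 in ripe NSd against PR NSd, 24 in PR NSd against PR Sd and 27 for the interaction. With an adjusted p under 0.05 and no fold limit they were 15, 25, 54, 53 and 43 of 93. Over all 20495 loci that limit called 777 higher and 667 lower in ripe Sd against PR Sd. It called 838 and 1529 in ripe NSd against ripe Sd and 8041 and 1592 in ripe NSd against PR NSd. In PR NSd against PR Sd it called 1699 and 9073, and for the interaction 5515 and 1608. With no filter the bHLH count became 1 in ripe Sd against PR Sd and 2 in ripe NSd against ripe Sd. In ripe Sd against PR Sd it was also 1 with only the compared groups and with robust moderation. Leaving out each library in turn gave 1 to 6, 0 to 9, 22 to 29, 16 to 27 and 18 to 27. The 6 came without replicate 9 and a count of 5 without replicate 1, while between the ripe palms 0 were called without replicate 11 or 12. Rescaling by median ratio moved the split of higher and lower calls to 12 and 16 in ripe NSd against PR NSd (15 and 14 before) and 15 and 6 in PR NSd against PR Sd (13 and 11 before). Of 78 calls at named loci, 48 were made under every alternative run for their comparison (18 for the interaction, 19 or 20 for the others) and 30 were lost under at least 1, among them all 6 between the ripe palms, and none changed sign. The cause was not tested. No paired analysis was possible because each library has a replicate number of its own, shared by no other group. Loci near 1 RPKM rest on few reads, and 3 samplings of 1 bunch limit every p-value to that bunch.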

Other observations

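Loci of the bHLH family that carry other names in their descriptions were outside the search, and 22 of 52 such loci were tested. In ripe NSd against PR NSd 3 were called higher and 1 lower (7.77% and 3.07% of all loci), in PR NSd against PR Sd 2 higher and 3 lower (3.36% and 9.53%), and the interaction was called above 0 at 5 and below 0 at 1 (9.19% and 4.07%). In ripe NSd against ripe Sd and in ripe Sd against PR Sd limma called 0, with 4 higher and 5 lower and with 1 higher and 3 lower at an unadjusted p under 0.05. At that limit 10.3% of all loci were higher and 18.0% lower between the ripe palms, and 12.5% and 10.1% in ripe Sd against PR Sd. IBH1-like 1 (LOC105039571), named after an Arabidopsis inhibitor of growth factors of the same family, averaged 38.6 RPKM in ripe NSd and 6.17 in PR NSd, and was higher in ripe NSd at 2.40 on the log2 scale (adjusted p = 0.000314). HEC2 (LOC105058234), related to pistil factors of Arabidopsis, ran the other way at -1.32 (adjusted p = 0.00379), with 1.02 RPKM in ripe NSd and 4.14 in PR NSd. SPATULA (LOC105052814), a factor of fruit and pistil growth in Arabidopsis, was lower in PR NSd than in PR Sd at -1.85 (adjusted p = 1.47e-06).

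Over all tested loci 7.77% were called higher and 3.07% lower in ripe NSd than in PR NSd, and 3.36% higher and 9.53% lower in PR NSd than in PR Sd. Of 42 tested loci for flavonoid and anthocyanin enzymes, 13 were called higher and 1 lower in ripe NSd than in PR NSd, and 3 higher and 15 lower in PR NSd than in PR Sd. Of 4 tested phytochrome loci, the light receptors that bind PIF factors, phytochrome C (LOC105033216) was higher in ripe NSd than in PR NSd at 1.46 (adjusted p = 3.35e-06), and 2 loci were called lower in PR NSd than in PR Sd. Of 12 tested loci for the light signalling proteins HY5, COP1 and SPA, 1 was called higher in ripe NSd than in PR NSd and 2 lower in PR NSd than in PR Sd. Of 5 tested DELLA loci, gibberellin repressors that bind PIF factors, 1 was called higher in ripe NSd than in PR NSd and 1 lower in PR NSd than in PR Sd.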
